A study of Mus musculus with 6 samples.

Results

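The 10 genes described here encode the proteins that join cardiomyocytes end to end at the intercalated disc. They are the desmosome genes Dsp, Dsg2, Dsc2, Pkp2 and Jup, the adherens junction genes Cdh2, Ctnna1, Ctnna3 and Ctnnb1, and Tjp1, which encodes zonula occludens protein ZO-1. The rule names them by symbol in a table of 54093 genes and uses no measured value, but the list was chosen with earlier results of these data known. All 10 were among the 12627 genes expressed highly enough to be tested.

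RNA-seq was performed on the right atrium (RA) of wild-type C57BL/6 mice at postnatal day 21 (P21), and the comparison asks how neonatal volume overload (VO) alters RA gene expression. Male or female pups were operated on at P7. In the VO group an aortocaval fistula (ACF) was made by needle puncture between the abdominal aorta and the inferior vena cava, which sends arterial blood straight back to the RA, and the sham group had sham surgery. Each group has 3 libraries, named sham 1 to sham 3 and VO 1 to VO 3; the sources used here do not say whether a library is 1 animal or a pool, so the spread between libraries may be partly technical.

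At the intercalated disc, N-cadherin and the desmosomal cadherins span the gap between neighbouring cells. Inside the cell, the catenins tie N-cadherin to the actin of the last sarcomere, while plakoglobin, plakophilin 2 and desmoplakin tie the desmosomal cadherins to desmin filaments. In the mammalian heart the 2 kinds of junction intermingle in a mixed structure called the area composita, in which αT-catenin binds plakophilin 2. Mutations in the desmosome genes are the best-known genetic cause of arrhythmogenic cardiomyopathy, and plakoglobin and β-catenin also serve in Wnt signalling.

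No member passed the test for a difference between VO and sham after adjustment over all tested genes, and the differences were small. Ctnna3, Ctnna1 and Pkp2 were each lower in all 3 VO libraries than in any sham library, at 76.5%, 82.3% and 84.0% of the sham level. Dsc2 was higher in all 3 VO libraries than in any sham library, at 117% of sham. In the other 6 members, which include the N-cadherin, β-catenin, plakoglobin and desmoplakin genes, the groups overlapped. Over all tested genes, 12.9% were lower and 8.25% higher in VO without overlap, so these separations are no result about the members as a group. The sign of the Ctnna1 difference also reversed with quantile normalization.

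The members lie on 7 chromosomes of the mouse genome (build GRCm38), and 4 of them are on chromosome 18. There, Dsc2 (chr18:20030633-20059554, minus strand) and Dsg2 (chr18:20558074-20604521, plus strand) belong to the desmosomal cadherin cluster, with their starts 498.5 kb apart. The N-cadherin gene Cdh2 lies at chr18:16588877-16809246 on the minus strand, and Ctnna1 at chr18:35118888-35254773 on the plus strand. Dsp lies at chr13:38151294-38198577 (plus), Pkp2 at chr16:16213318-16272712 (plus) and Jup at chr11:100368958-100397763 (minus). Ctnnb1 lies at chr9:120929216-120960507 (plus), Tjp1 at chr7:65296165-65527781 (minus) and Ctnna3 at chr10:63430098-65003667 (plus). Ctnna3 is by far the longest of the 10, spanning 1573570 bases, while its annotated exons add up to 7227 bases. Genes that overlap a member in the annotation had a mean of at most 0.306 FPKM (fragments per kilobase of exon, scaled to the size of the library), the highest being Lrrtm3 inside Ctnna3, so they could add few fragments even where the strand of a read was not counted.

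The libraries held between 15963082 and 17237903 fragments on genes, and the member with the fewest, Ctnna3, had 513 to 790 fragments in each, so no member's value rested on a handful of reads. For the label RA, the presence of atrial tissue was checked, but not the side. The atrial markers Nppa, Myl7, Myl4 and Sln were all detected in every library. All 4 were lower in VO (2 with an unadjusted limma p under 0.05, median log2 fold change -0.86). Their summed level was 10406 to 16633 FPKM in sham and 4533.7 to 10021 in VO. Some libraries stood apart. Over 10 cardiomyocyte markers, which include Myl7 and Myl4 of the atrial list, 9 were lower in VO. An unadjusted limma p under 0.05 was reached by 5 of them, beside 8.08% of all tested genes. Myl7 and Myl4 were among these 5 and were also the 2 counted in the atrial list. The summed level of the 10 markers was 17486 to 21165 FPKM in sham and 8599.9 to 14555 in VO, lowest in VO 1. The count of 5 markers became 7 without VO 2. It became 2 without sham 1, without sham 2, without VO 1 or without VO 3, and 1 without sham 3. It was 5 with voom, 4 with TPM, 3 with array weights and 2 with a replicate block. With no filter on low genes it was 1, and with quantile normalization 0. Immune markers summed to 654 FPKM in VO 1 and to between 172 and 249 in the other 5 libraries. Adipocyte markers summed to 369.8 FPKM in VO 3 and to at most 0.773 elsewhere, and Schwann cell markers to 41.7 in VO 3 and at most 5.88 elsewhere. Mesothelial markers summed to 33.4, 111 and 52.5 FPKM in sham and to 111, 40.7 and 71.6 in VO. The ventricular marker Myl2 was at 60.4, 2.02 and 55.96 FPKM in sham and 6.95, 1.54 and 20.6 in VO. The part of any of these markers in the results was not tested. In whole-tissue RNA, fewer cardiomyocytes and less of a transcript per cardiomyocyte cannot be told apart.

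Promoter sequences are shown for the member with the largest difference, Ctnna3, and for 2 desmosome plaque genes whose groups overlapped, Dsp and Jup. The RefSeq table (build GRCm38.p6) held 5 of the 10 members, namely Tjp1, Ctnnb1, Ctnna3, Jup and Dsp. Each run below is the 250 bases before an annotated start, written 5′ to 3′ on the strand of the gene, with matches to a motif in capitals. The 6 motifs searched on both strands were the GC box GGGCGG, the CCAAT box, the TATA box TATAAA, the GATA site GATAAG, the TEAD site CATTCC and TATTTA, a core of MEF2 sites. They were chosen after the sequences had been seen, and no matches overlapped in the windows printed.
Ctnna3 start 1, chr10:63429848-63430097, plus strand: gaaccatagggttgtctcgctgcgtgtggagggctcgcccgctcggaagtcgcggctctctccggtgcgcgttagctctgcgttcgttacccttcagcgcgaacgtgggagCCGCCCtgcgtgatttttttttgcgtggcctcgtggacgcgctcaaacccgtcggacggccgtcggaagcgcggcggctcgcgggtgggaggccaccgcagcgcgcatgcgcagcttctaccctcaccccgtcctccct
Ctnna3 start 2, chr10:63457261-63457510, plus strand: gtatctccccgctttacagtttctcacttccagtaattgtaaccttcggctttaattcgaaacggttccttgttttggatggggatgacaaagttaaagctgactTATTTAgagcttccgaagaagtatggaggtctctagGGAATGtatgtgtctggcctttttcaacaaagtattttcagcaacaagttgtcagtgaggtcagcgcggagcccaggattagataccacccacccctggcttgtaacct
Dsp, chr13:38151044-38151293, plus strand: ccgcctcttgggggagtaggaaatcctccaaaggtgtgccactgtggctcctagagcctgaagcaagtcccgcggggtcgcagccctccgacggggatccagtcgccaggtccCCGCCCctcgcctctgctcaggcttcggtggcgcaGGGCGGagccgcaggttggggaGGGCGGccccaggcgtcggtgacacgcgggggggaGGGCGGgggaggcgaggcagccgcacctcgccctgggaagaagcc
Jup, chr11:100397791-100398040, minus strand: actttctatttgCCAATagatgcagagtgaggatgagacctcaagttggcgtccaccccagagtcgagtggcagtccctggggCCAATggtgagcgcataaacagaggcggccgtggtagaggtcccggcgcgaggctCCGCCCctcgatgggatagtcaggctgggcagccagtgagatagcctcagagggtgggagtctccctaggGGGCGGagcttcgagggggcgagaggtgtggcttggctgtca
Ctnna3 start 1 held 1 GC box, while start 2 held 1 CATTCC and 1 TATTTA and no GC box. A start 3 (chr10:63820805-63821054), not printed, held 1 TATAAA, which is in 12.4% of all windows, and none of the printed windows held that motif. Dsp held 4 GC boxes, and Jup held 2 GC boxes and 2 CCAAT boxes. Across all 32851 windows of this length in the table, 32.7% held a GC box, 33.9% a CCAAT box, 12.6% a CATTCC and 12.7% a TATTTA, so none of these motifs is rare. GATAAG, held by 6.55% of windows, was in none of the 4. A match describes letters and is not a binding site, and the values below are sums over a whole gene that do not tell the starts of Ctnna3 apart.

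**Figure D1:**
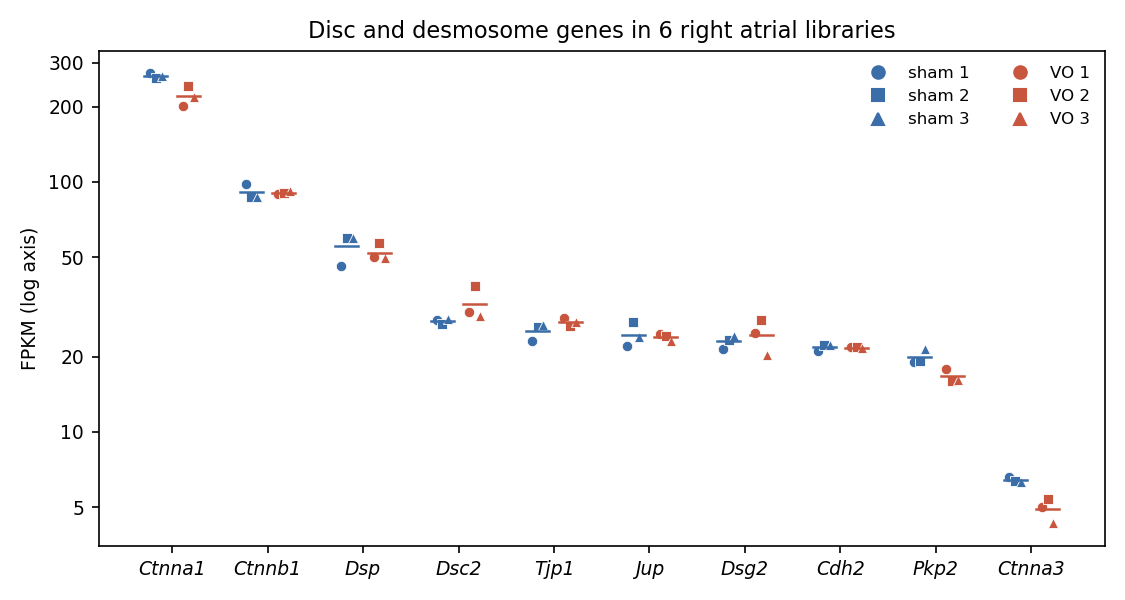
FPKM of the 10 members (log axis) in each sham (blue) and VO (red) library, ordered by the sham mean; symbols mark the library number and short lines the group means. The groups are apart for Ctnna1, Dsc2, Pkp2 and Ctnna3 and overlap for the other 6, and the order of the genes spans from 266 FPKM for Ctnna1 to 6.42 for Ctnna3 in sham.

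The members differed far more from each other than between the groups. FPKM is per length of annotated exons, so levels of different genes can be set side by side only as far as that length holds for the transcripts present. The length was 3698 bases for Ctnna1 and 7227 for Ctnna3, and the transcripts of a gene were not told apart. In the sham RA the αE-catenin gene Ctnna1 was the highest at 266 ± 5.35 FPKM (SD, n = 3), above 99.0% of the tested genes. The β-catenin gene Ctnnb1 followed at 91.0 ± 6.48 FPKM, so Ctnna1 was 2.93 times as high. Desmoplakin, which links the plaque to desmin, came next at 55.3 ± 7.79 FPKM, and Dsc2 at 27.7 ± 0.665. The sham ranges of these 4 genes did not touch, and Dsc2 was also apart from Tjp1 at 25.4 ± 1.94 FPKM. From Tjp1 through Jup, Dsg2 and Cdh2 to Pkp2, with means from 25.4 down to 19.9 FPKM, each gene overlapped its neighbour in the order. The αT-catenin gene Ctnna3 was last at 6.42 ± 0.166 FPKM, a level 3.1 times below that of Pkp2 and not overlapping with it, although it still exceeded 52.0% of the tested genes. In VO the order of adjoining genes was the same for the pairs that were apart in sham.

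The background over all genes sets the scale for the differences. With limma on log2(FPKM + 0.1), an adjusted p under 0.05 was reached by 0.00792% of the tested genes, which is 1 gene, and by 0 of the 10 members. An unadjusted p under 0.05 was reached in the lower direction by 8.08% of the tested genes and by 2 members (Pkp2 and Ctnna3), and in the higher direction by 3.89% of the tested genes and by 0 members. Groups without overlap and lower in VO were seen for 12.9% of the tested genes and for 3 members, and without overlap and higher in VO for 8.25% and for 1 member. At these shares about 1 of 10 genes would be without overlap in either direction, so the members held 2 more than that among the lower genes and no more among the higher ones, which in a list of 10 is no result about the members as a group. The median log2 fold change was -0.02 over the members and -0.01 over all tested genes, with 7 members lower and 3 higher, from -0.39 to 0.22.

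**Figure D2:**
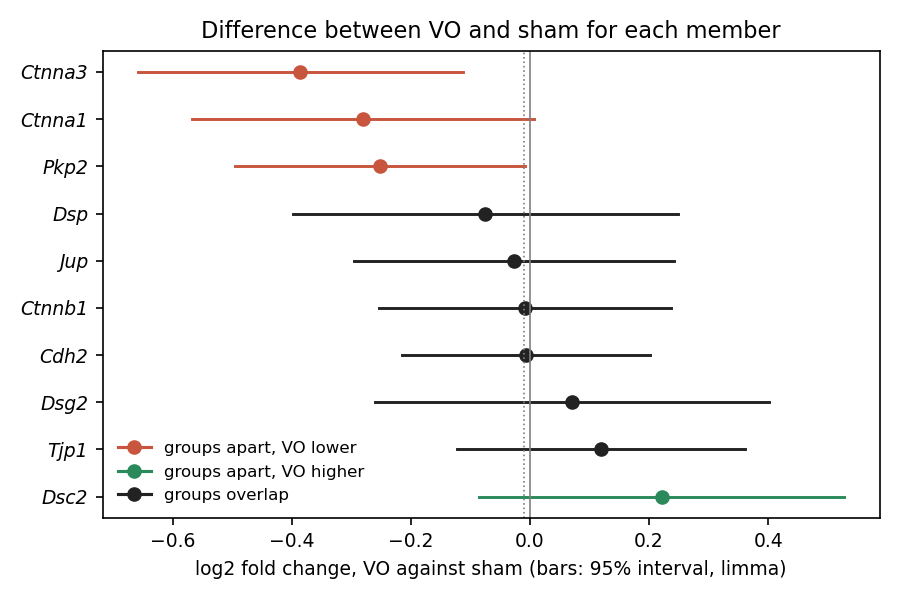
log2 fold change of each member, VO against sham (horizontal axis; points), with 95% intervals from limma (bars); the solid line is at 0 and the dotted line at -0.01, the median of all tested genes. The intervals of Ctnna3 (-0.66 to -0.11) and Pkp2 lie below 0 before adjustment, and those of the other 8 include 0.

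None of the 5 desmosome genes passed the test after adjustment, and Dsc2 and Pkp2 were the 2 whose groups were apart. Desmocollin 2, the product of Dsc2, pairs with desmoglein 2 as the adhesive part of the cardiac desmosome. Dsc2 was read at 28.0, 27.0 and 28.2 FPKM in sham 1 to 3 and at 30.2, 38.5 and 29.1 in VO 1 to 3. All VO libraries were above all sham libraries, 2 of them narrowly and VO 2 clearly. The log2 fold change was 0.22 ± 0.13 (SE) with a 95% interval of -0.085 to 0.53 and a limma adjusted p of 0.476. Leaving out VO 2 brought it to 0.0958.

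Dsg2, the partner cadherin, was read at 21.5, 23.4 and 24.3 FPKM in sham and 24.9, 28.1 and 20.3 in VO. Its VO libraries bracketed the sham range, with VO 2 the highest and VO 3 the lowest of all 6. The log2 fold change of 0.07 had an interval of -0.26 to 0.40, which leaves room for 83.5% to 132% of the sham level, and without VO 2 it was -0.0358. The ratio of Dsc2 to Dsg2 was 1.299, 1.154 and 1.161 in sham and 1.21, 1.37 and 1.43 in VO, and the groups overlapped in sham 1 and VO 1 (exact permutation test, two-sided, p = 0.2, adjusted over the 5 ratios 0.833).

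Pkp2 encodes plakophilin 2, the armadillo protein that gathers desmoplakin and the cadherins into the plaque. Sham libraries were at 19.1, 19.2 and 21.4 FPKM and VO libraries at 17.9, 16.0 and 16.2. The groups were nearest to each other at sham 1 and VO 1, and the other 2 VO libraries lay well below all of sham. VO differed from sham by -0.25 ± 0.10 on the log2 scale (SE; 95% interval -0.50 to -0.0087), with a limma p of 0.0441 unadjusted and 0.414 adjusted. The unadjusted p was above 0.05 when any of sham 2, sham 3, VO 2 or VO 3 was left out. Over the 6 fits without a single library the difference ran from -0.304 to -0.198. It was -0.114 with TPM and -0.169 with quantile normalization, and the unadjusted p was above 0.05 under both, without the variance trend and with a replicate block.

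Dsp, which encodes desmoplakin, was at 46.3 FPKM in sham 1, 59.8 in sham 2 and 59.8 in sham 3, and at 49.99, 56.8 and 49.9 in VO. Sham 1 was the lowest of the 6, so the groups overlapped fully (log2 fold change -0.08, interval -0.40 to 0.25, limma adjusted p = 0.807). Jup, which encodes plakoglobin, the plaque protein shared by desmosomes and adherens junctions, was at 22.0, 27.6 and 23.9 FPKM in sham and 24.7, 24.1 and 23.1 in VO. All 3 VO values of Jup lay inside the sham range (log2 fold change -0.03, interval -0.30 to 0.24). The ratio of Pkp2 to Dsp was 0.412, 0.321 and 0.358 in sham and 0.359, 0.281 and 0.324 in VO and overlapped (exact permutation p = 0.5, adjusted 0.833).

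Most desmosomal paralogs and plaque genes known mainly from epithelia were near 0. Of 12 such genes, 10 were under the mean of 1 FPKM needed for testing, among them Dsg1a, Dsg3, Dsc1, Dsc3 and Pkp3, and Pkp1 was at 0 in every library. Dsg2 and Dsc2 were the desmosomal cadherins detected at a testable level. The 2 that could be tested were Ppl, which encodes periplakin (1.65 to 3.67 FPKM over the 6 libraries), and Perp, which encodes a tetraspan membrane protein of desmosomes. Perp was at 121, 108 and 114 FPKM in sham and 91.2, 110.04 and 96.9 in VO, above every desmosome member, and the groups overlapped (log2 fold change -0.21, limma adjusted p = 0.468). Of the surface epithelium markers, Krt5 was at 0 in every library, but others were detected. Krt14 was at 0.731, 1.22 and 0.105 FPKM in sham and 4.42, 0.523 and 0.968 in VO. Krt10 was at 0.988 to 1.28 FPKM over the 6 libraries, and Epcam had a mean of 0.0394.

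None of the 4 adherens junction genes passed the test after adjustment, and the groups were apart for the 2 α-catenin genes and overlapped for Cdh2 and Ctnnb1. Cdh2 encodes N-cadherin, the classical cadherin of cardiomyocytes. Its values were 21.1, 22.2 and 22.3 FPKM in sham and 21.8, 21.8 and 21.7 in VO, the narrowest spread of the 10 members. The log2 fold change was -0.01 ± 0.088 (SE), and the 95% interval of -0.22 to 0.20 places the VO level between 86.1% and 115% of sham.

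Ctnnb1, which encodes β-catenin, the link between N-cadherin and α-catenin, was at 98.5, 87.2 and 87.4 FPKM in sham and 89.2, 90.1 and 91.6 in VO. Sham 1 was the highest, and the VO libraries lay between it and the other sham libraries. VO differed from sham by -0.01 on the log2 scale (interval -0.25 to 0.24, limma adjusted p = 0.975). Jup and Ctnnb1 encode close relatives that compete for the same place on cadherins, and the ratio of Jup to Ctnnb1 averaged 0.271 ± 0.0466 (SD, n = 3) in sham and 0.265 ± 0.0122 in VO (exact permutation p = 0.9).

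Ctnna1 encodes αE-catenin, which carries the load from β-catenin to actin. It was read at 272, 262 and 265 FPKM in sham and at 200.5, 241 and 218 in VO. The sham libraries lay close together, and every VO library was below them, with VO 1 the lowest. Its log2 fold change was -0.28 ± 0.12 (SE; 95% interval -0.57 to 0.0067), with a limma p of 0.0542 unadjusted and 0.414 adjusted. It was -0.22 without VO 1, the library lowest in cardiomyocyte markers, and -0.35 without VO 2. Quantile normalization, which forces all libraries to 1 distribution, turned it to 0.0423, while TPM gave -0.14. The direction of this highly expressed gene therefore depended on the scaling, with quantile normalization the only setting that reversed it. The unadjusted limma p was under 0.05 without the variance trend (0.0443), with voom (0.0452) and without VO 2 (0.0399). The adjusted p was at least 0.304 in every setting.

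Ctnna3 encodes αT-catenin, the α-catenin found mainly in heart and testis, which binds plakophilin 2 in the area composita. It had the largest difference among the 10 members, with 6.61, 6.34 and 6.30 FPKM in sham and 5.003, 5.41 and 4.32 in VO. In fragments, this was 743, 790 and 742 in sham and 656, 637 and 513 in VO. Every VO library was below every sham library on both scales, with VO 3 the lowest. Its difference on the log2 scale was -0.39 ± 0.12 (SE; 95% interval -0.66 to -0.11), with a limma p of 0.0123 unadjusted and 0.404 adjusted, and it ranked 370 by p among the 12627 tested genes. Over the leave-one-out fits it ran from -0.457 without VO 2 to -0.298 without VO 3, and it was -0.40 without VO 1. The unadjusted p was under 0.05 in 16 of 17 settings and the adjusted p in none; the exception was scaling to TPM, with -0.25.

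The 2 α-catenin genes were also compared with each other. Ctnna3 made up 2.37%, 2.37% and 2.32% of the FPKM of both in sham and 2.43%, 2.19% and 1.94% in VO. The VO shares were more spread and included the highest of the 6, and the ratio of Ctnna3 to Ctnna1 overlapped (log2 -0.11, exact permutation p = 0.4, adjusted 0.833), running from -0.187 without VO 1 to -0.0221 without VO 3. The neuronal α-catenin gene Ctnna2 was at a mean of 0.0651 FPKM. Of 3 further pairs chosen after the values were seen, which therefore restate the levels above, Ctnna1 to Ctnnb1 was 2.76, 3.003 and 3.04 in sham and 2.25, 2.68 and 2.38 in VO. Those groups did not overlap, at the exact permutation p of 0.1, which is the smallest that 3 libraries against 3 can give, so the design cannot reach 0.05 for any ratio. Ctnna1 to Cdh2 was 12.9, 11.8 and 11.9 in sham and 9.19, 11.1 and 10.1 in VO, without overlap (exact permutation p = 0.1). Pkp2 to Jup was 0.866, 0.696 and 0.896 in sham and 0.727, 0.663 and 0.700 in VO and overlapped (exact permutation p = 0.3).

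**Figure D3:**
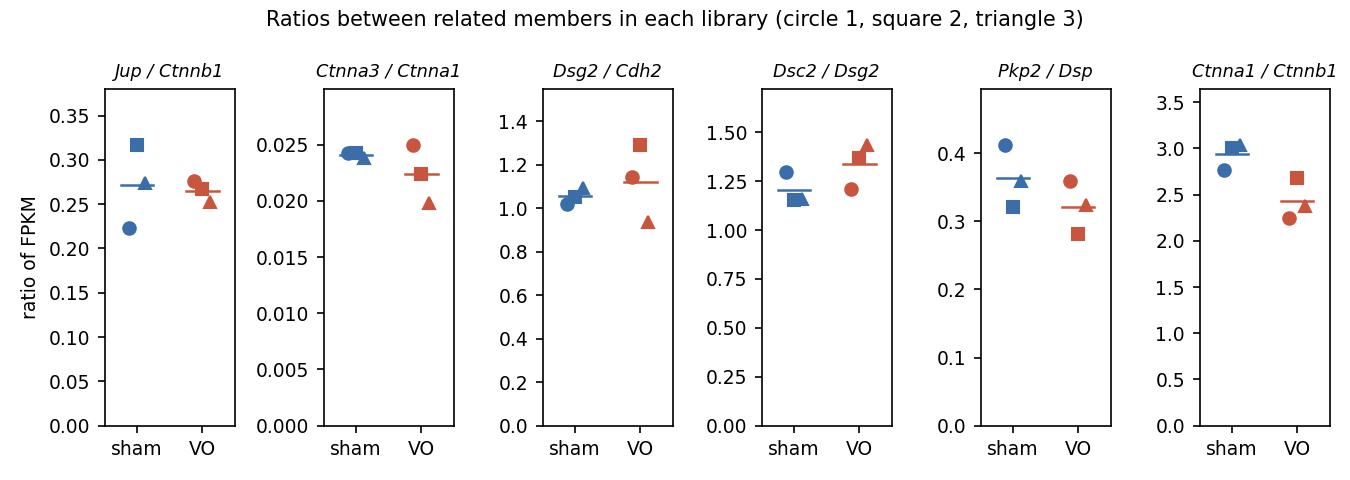
Ratio of FPKM for 6 pairs of related members in each sham (blue) and VO (red) library, with axes from 0 and short lines at the group means. The groups overlap in the 5 pairs on the left, and in Ctnna1 / Ctnnb1, chosen after the values were seen, all VO libraries (2.25 to 2.68) lie below all sham libraries (2.76 to 3.04).

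Tjp1 encodes ZO-1, a scaffold that borders the gap junction plaques and binds α-catenin and connexin 43. It was at 23.2, 26.3 and 26.7 FPKM in sham and 28.6, 26.5 and 27.5 in VO. Only sham 3 and VO 2 crossed, by less than 1 FPKM. The log2 fold change was 0.12 with an interval of -0.12 to 0.36 (limma adjusted p = 0.596). Of 9 tested genes of the tight junction family, 5 were lower and 4 higher, with 0 at an unadjusted limma p under 0.05 in either direction and a median of -0.04. The 2 with the smallest p were Cldn12, a claudin, at a log2 fold change of -0.33 (adjusted p = 0.432), and F11r, which encodes junctional adhesion molecule A, at 0.13 (adjusted p = 0.620).

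The wider disc was described with lists of further genes, none of which held a gene past an adjusted p of 0.05. For scale, 6503 of all 12627 tested genes were lower and 6124 higher in VO. An unadjusted limma p under 0.05 was reached by 8.08% of them in the lower and 3.89% in the higher direction. Of 22 adherens junction partners and disc scaffolds, 17 were lower and 5 higher in VO; 8 of the 17 and 0 of the 5 had an unadjusted limma p under 0.05, and the list median was -0.15. The smallest p belonged to Nrap, which encodes an actin-binding scaffold that ties the last sarcomere to the adherens junction. Nrap was at 30.9, 33.7 and 36.9 FPKM in sham and 18.1, 22.4 and 23.3 in VO, without overlap (log2 fold change -0.67, limma adjusted p = 0.314). Popdc2, which encodes a cyclic AMP-binding membrane protein, was at 199.9, 197 and 212 FPKM in sham and 141, 157 and 128 in VO (log2 fold change -0.52, adjusted p = 0.344). Xirp2, an actin-binding repeat protein of the disc, was at 21.3, 19.2 and 20.2 FPKM in sham and 11.7, 15.3 and 16.7 in VO (-0.48, adjusted p = 0.404). Vinculin (Vcl), which binds stretched α-catenin, overlapped at -0.15.

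The count of 8 partners moved with the library and the scaling. It was 3 without sham 2, 3 without sham 3, 4 without VO 1 and 5 without VO 3. With TPM it was 3 lower and 1 higher, the latter being Afdn, and with quantile normalization 3 lower. Nrap and Xirp2 were lower at an unadjusted p under 0.05 in 17 of 17 settings.

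A list of intermediate filaments and genes linked to them had 6 genes lower and 3 higher of 9 tested, 4 of them lower at an unadjusted limma p under 0.05. Not all 9 encode filaments to which desmosomes attach. The nuclear lamin gene Lmna was 1 of the 4, at -0.29, which is also the list median. Desmin, the muscle filament held by desmoplakin, was at 274, 234 and 246 FPKM in sham and 112, 206 and 166 in VO, without overlap and with VO 1 the lowest. Its log2 fold change was -0.68 (limma adjusted p = 0.404) and -0.44 without VO 1. Cryab, which encodes the small heat shock protein that protects desmin, was at -0.52 (adjusted p = 0.406) and Synm, which encodes synemin, at -0.71 (adjusted p = 0.409). The 4 lower genes became 2 when sham 1, sham 2 or VO 1 was left out and 1 without sham 3. The count was also 2 with TPM, with quantile normalization and with a replicate block. It was 3 with no filter, with a mean of at least 5 FPKM and without VO 3. The cardiomyocyte markers had a median of -0.47, beside -0.29 for this list, -0.15 for the partners and -0.02 for the members. These medians moved with the scaling and the library: with TPM they were -0.33, -0.16, -0.01 and 0.12 in the same order, and with quantile normalization -0.19, -0.16, -0.07 and 0.08. The marker median was -0.28 without VO 1 and -0.61 without VO 2, and that of the partners was -0.06 without sham 2. The part of those markers in any of these values was not tested. Whole-tissue RNA does not tell which cells gave the members' transcripts, so the members' median is not a value for cardiomyocytes alone.

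**Figure D4:**
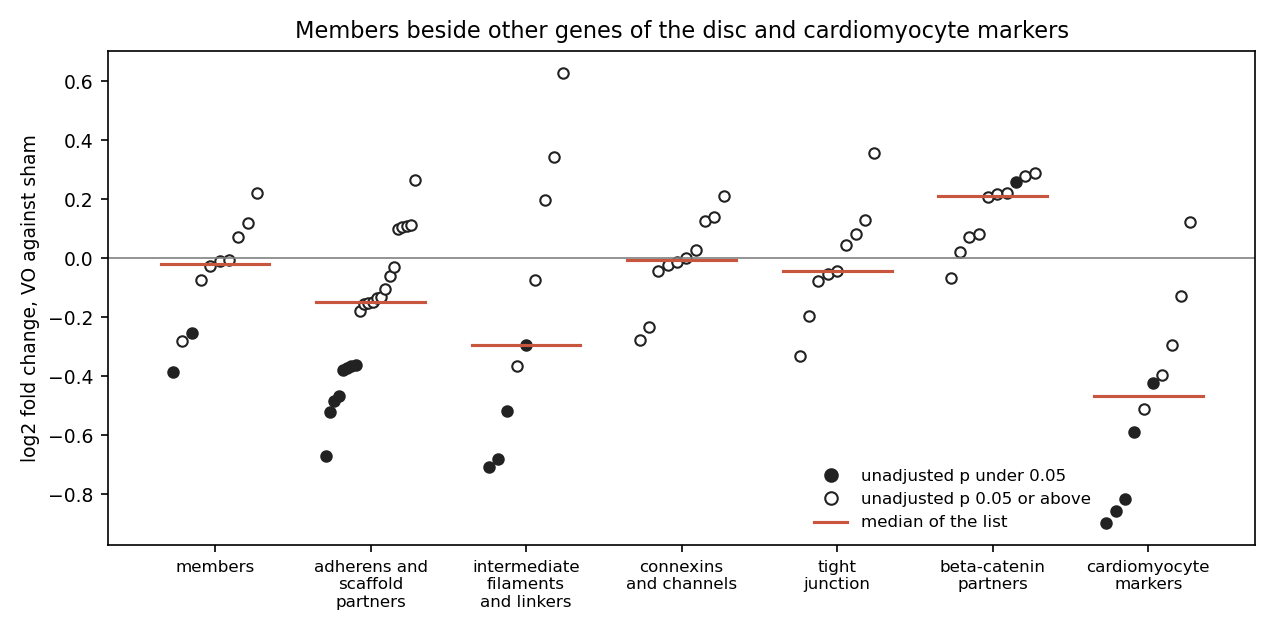
log2 fold change, VO against sham (vertical axis), of each tested gene in 7 lists, with filled points where the unadjusted limma p is under 0.05 and lines at the list medians. The members centre on -0.02, the partners on -0.15, the filaments on -0.29 and the cardiomyocyte markers on -0.47.

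With limma on log2(FPKM + 0.1), 5 of the 10 tested gap junction and channel genes of the disc were lower and 5 higher. The median was -0.01, and 0 had an unadjusted limma p under 0.05. This split moved with the scaling and the library. It was 2 lower and 8 higher with TPM, with a median of 0.13. Array weights and leaving out sham 1 each gave 7 lower and 3 higher, and leaving out sham 3 gave 3 and 7. The count lower at an unadjusted p under 0.05 was 2 with array weights and 1 without sham 1. The connexin 43 gene Gja1 was at 38.8, 40.6 and 45.1 FPKM in sham and 47.7, 35.4 and 40.8 in VO. The atrial connexin 40 gene Gja5 was at 12.7, 16.8 and 15.2 FPKM in sham and 17.98, 16.2 and 11.9 in VO, so both overlapped (log2 fold changes -0.01 and 0.03). The connexin 45 gene Gjc1 was at 4.19, 5.28 and 5.16 FPKM in sham and 5.35, 6.23 and 5.36 in VO, without overlap and higher in VO (0.21, limma adjusted p = 0.491). The smallest p of this list was that of Ank3, which encodes ankyrin G, the anchor of sodium channels, at 3.59, 3.60 and 3.61 FPKM in sham and 2.84, 3.29 and 2.77 in VO (-0.28, adjusted p = 0.414). Gjc1 had the second smallest.

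On the signalling side of β-catenin, 9 of 10 tested partners and destruction complex genes were higher and 1 lower, by a list median of 0.21, but only Pygo2, which encodes a coactivator, had an unadjusted limma p under 0.05 (0.26, adjusted p = 0.411). Without sham 1 it was 7 higher and 3 lower with a median of 0.0781, without sham 3 also 7 and 3, and array weights gave a median of 0.0839. Of 6 tested β-catenin target genes, 4 were lower and 2 higher. Axin2, the best-known feedback target, was at 1.81, 1.66 and 1.88 FPKM in sham and 1.31, 1.73 and 1.65 in VO and overlapped. Myc was at 1.51, 1.84 and 1.88 FPKM in sham and 2.27, 2.14 and 3.38 in VO (0.53, adjusted p = 0.411), and it is also driven by many other signals. Among 5 other cadherins tested, Cdh5, the cadherin of endothelial cells, was at 39.9, 45.2 and 45.6 FPKM in sham and 55.5, 48.9 and 53.97 in VO (0.28, adjusted p = 0.41), and the other 4 overlapped.

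Averaged over the 10 members, the libraries lay within a narrow band, from -0.105 on the log2 scale in VO 3 to 0.0628 in sham 3 around each gene's own mean. The 5 tested genes nearest to this averaged profile, by the root mean square difference of centred log2 values over the 6 libraries, were Sec23a, Wbp1l, Ubr3, Cnot10 and Gna12, at 0.0205 to 0.0262. For Ctnna3 alone the nearest were Cnpy3 at 0.0433 and Lsm3 at 0.0472, while Ctnna1 was the nearest member at 0.109 and Pkp2 followed at 0.141. With 6 libraries, many genes share any such profile.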

How the data were processed

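Reads of 150 bases (paired ends) were aligned with HISAT2 2.0.5 and counted per gene with featureCounts 1.5.0-p3, per the study's methods and processing notes. The deposited FPKM values, which the authors computed from gene length and counts, already carried a scaling between libraries: their median-of-ratios factor was 1 in all 6. Each value times gene length was a whole multiple (within 0.05) of 1 step per library for 100% of values, which gave back fragments. An incomplete last line was left out, and coordinates were identical to the GENCODE M21 annotation of GRCm38 for 98.4% of 54039 shared genes (for all members but Ctnna1). The strand used in counting is not given in the sources used here, so antisense reads cannot be told apart.

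Genes with a mean of at least 1 FPKM were fitted as log2(FPKM + 0.1) with limma 3.58.1 in R 4.3.3 (eBayes with trend; VO against sham, two-sided, no covariate). P-values were adjusted by Benjamini-Hochberg across the 12627 tested genes, with a threshold of 0.05. The pseudocount makes fold changes of low genes slightly too small. The fit was tested on simulated data. Ratios of members were compared with exact permutation tests in scipy 1.17.1. The members and lists were chosen with earlier results of these data known, and lists have no test of their own. All members were named, and from each other list up to 3 genes in each direction with the smallest p under 0.05, or the 2 smallest where there was none; connexins were also named, as were the nearest genes by profile. Vcl, Afdn, Axin2, Perp, Ppl, Lmna, Krt10, Krt14, Epcam and the paralogs given by level were named after their values were seen. Alternatives were pseudocounts of 1 and 0.01, no filter, a mean of at least 5 FPKM, FPKM as deposited (identical, so not counted), TPM, quantile normalization, no trend, array weights, a replicate block, voom on recovered fragments, and each library left out.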

Additional observations from a re-analysis of the deposited data

How the results depend on the processing

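No member passed an adjusted p of 0.05 in any of the 16 alternatives that could differ; the deposited FPKM, with a scaling factor of 1, equal the values used and are not counted. Of 160 member values recomputed, 130 kept their direction and their side of an unadjusted p of 0.05, 5 crossed to under it, 9 crossed to above it and 16 changed sign. The count of members lower at an unadjusted p under 0.05 was 2 and ran from 1 to 2 with each library left out; it was 0 with TPM, 1 with quantile normalization and 3 with voom. The count higher was 0, and became 1 with TPM and 1 with quantile normalization (Dsc2 in both). TPM moved the median of all tested genes to 0.13 and the members' median to 0.121, with 486 genes lower and 1085 higher at an unadjusted p under 0.05 in place of 1020 and 491; quantile normalization gave a members' median of 0.0784.

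The sign changes were in members near 0, apart from Ctnna1. With TPM, the log2 fold change was 0.0642 for Dsp, 0.112 for Jup, 0.132 for Cdh2 and 0.131 for Ctnnb1. Quantile normalization gave 0.0738 for Dsp, 0.0665 for Jup, 0.083 for Cdh2, 0.204 for Ctnnb1 and 0.0423 for Ctnna1, and array weights gave 0.0352 for Ctnnb1. Without single libraries, Dsg2 ran from -0.0358 to 0.199, Jup from -0.101 to 0.0612, Cdh2 from -0.0317 to 0.0056 and Ctnnb1 from -0.0383 to 0.0496. The log2 ratio of Jup to Ctnnb1 ran from -0.151 without sham 1 to 0.0995 without sham 2 and was 0.0172 without VO 3, and that of Dsg2 to Cdh2 was -0.0277 without VO 2; the cause of these changes was not tested.

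The replicate block left 1 member lower at an unadjusted p under 0.05 (Ctnna3) and 608 genes lower and 324 higher in all. The values gave no sign that the numbers pair the libraries. After the group means were removed, libraries of the same number correlated at -0.108, 0.0112 and -0.0292, and 0 of 6 correlated best with its own number. With 3 libraries a group that also differ in marker content, this cannot exclude a pairing. With 3 libraries a group, even the narrowest unadjusted 95% interval among the members, that of Cdh2, ran from -0.22 to 0.20. Larger differences did not pass after adjustment either: Ctnna3 at -0.39 had a limma adjusted p of 0.404. The intervals therefore give no size above which a difference would have been found.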
